A study of Mus musculus with 7 samples.

Results

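Immediate early genes are switched on within minutes of a stimulus, without new protein synthesis, and most of them encode transcription factors. In T cells the antigen receptor drives them through calcium and NFAT, through the ERK kinases and serum response factor, and through CREB. The Nr4a genes encode orphan nuclear receptors, the Egr genes zinc-finger factors, and the Fos and Jun genes the basic leucine zipper proteins that pair as AP-1 and bind DNA together with NFAT. Regulatory T cells recognise self antigen and carry these messages without deliberate stimulation, and Nr4a receptors are needed for their development and their maintenance in mice. The 10 genes described here were taken by symbol from the 39179 genes of the table of the replicated comparison. They are Nr4a1, Nr4a2, Nr4a3, Egr1, Egr2, Egr3, Fos, Fosb, Jun and Junb, each with 1 row.

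The libraries came from regulatory T cells of lymph nodes of 3-week-old C57BL/6 mice, sorted as CD4+TCRb+CD25hi Foxp3+ cells, and the series compared cells with and without the E protein inhibitors Id2 and Id3. The dKO group (Id2fl/flId3fl/flFoxp3cre, 3 libraries) and the control group (Id2fl/+Id3fl/+Foxp3cre, 2 libraries) form the replicated comparison. Both groups carry the Foxp3-driven Cre, which deletes the floxed alleles in Foxp3-expressing cells, and the control mice are heterozygous for both floxed genes, so they are not wild type. A further dKO library and a further control library, without numbers, form a separate pair whose genotype tags are the reverse of their titles. No label says whether a library is 1 animal or a pool, so the p-values reflect only how far these libraries differ, and that spread may be technical.

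The values of the replicated comparison are the authors' group means of read counts scaled for depth, called scaled counts here, and they carry no SD. They summed to 3.99e+07 in dKO and 3.90e+07 in control. Id2 had 61.1 scaled counts in dKO and 783 in control (adjusted p 1.48e-08), and Id3 had 891 in dKO and 1376 in control (adjusted p 0.209), in the authors' deposited table. Of 10 regulatory T cell markers, only Ctla4 passed the test. At an unadjusted p under 0.05 by DESeq, 2 of these markers were higher and 3 lower in dKO, the 3 being Foxp3, Ikzf2 and Cd5. The B cell markers Cd79b and Cd22 had 1006 and 266 scaled counts in dKO, against 894 and 172 in control, in the authors' deposited table. The summed level of 8 B cell markers was 1356 in dKO and 1165 in control. That of 7 myeloid markers (Itgam and Lyz2 the highest, S100a9 at 0 in dKO and 0.458 in control) was 147 in dKO and 127 in control, and that of 6 CD8 T and NK cell markers (Cd8b1 and Eomes the highest) was 903 in dKO and 841 in control. By DESeq none of the genes on these 3 lists passed in either direction, and 0 had an unadjusted p under 0.05. The libraries also differed in Y-linked reads. The dKO mean of Kdm5d was 2.56 scaled counts, and of its control reads 285 lay in 1 library and 3 in the other. The part of other cells and of sex in the values below was not tested. In bulk RNA of sorted cells, fewer cells expressing a gene and less RNA per cell cannot be told apart.

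Of the 10 genes, 2 rose in dKO, the nuclear receptor genes Nr4a1 and Nr4a3. None fell by DESeq, 8 did not pass, and at an unadjusted p under 0.05 the counts were 3 higher and 0 lower. Over all genes with a p, 6.56% passed in either direction and 3.38% were higher in dKO. All 10 had a mean over 100 scaled counts, and among the 10903 genes at or above that level 8.18% were higher and 7.42% lower in dKO. The log2 ratio was above 0 for 9 of the 10, from -0.07 for Jun to 1.04 for Nr4a2, though the sign of Junb turned with another scaling. Their median was 0.27, beside -0.01 for all 15446 genes at a mean of at least 10. The choice of these genes was made with earlier results of these data known, so their count and median are a description.

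**Figure D1:**
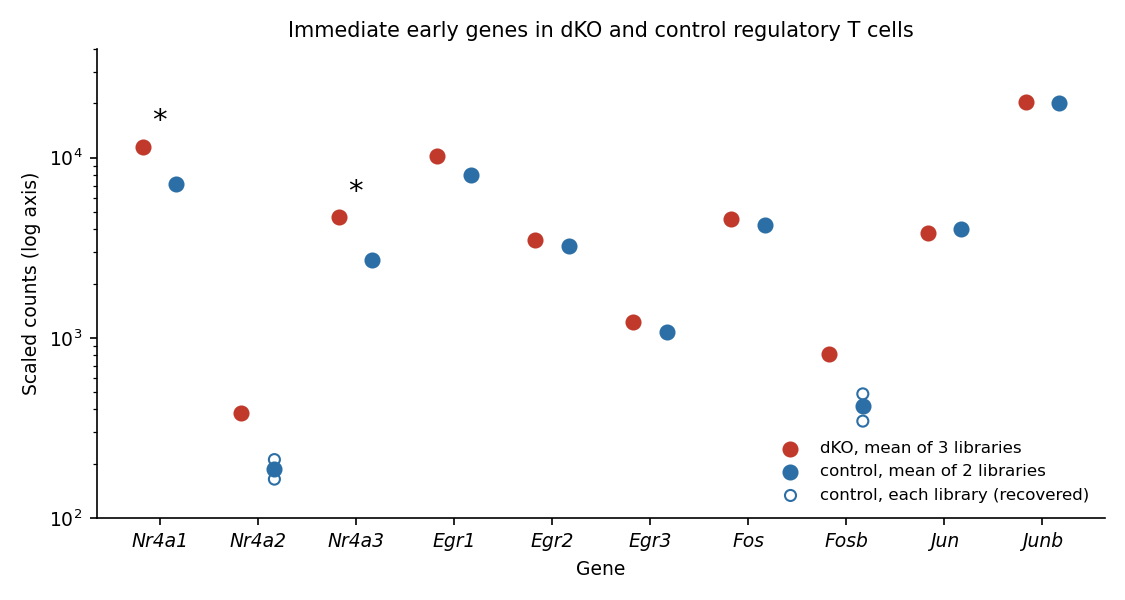
Scaled counts (log axis) of the 10 genes. Filled points are the authors' group means for dKO (red, left, 3 libraries) and control (blue, right, 2 libraries), open circles are the 2 control libraries where their reads could be recovered, and asterisks mark the authors' adjusted p under 0.05. Nr4a1 and Nr4a3 carry asterisks, the dKO means of Nr4a2 and Fosb lie above both control libraries, and the Jun and Junb points nearly coincide.

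All 3 Nr4a receptors had higher means in dKO than in control. Nr4a1 (Nur77, ENSMUSG00000023034, chromosome 15, 101266846 to 101274792 on GRCm38, as for all coordinates here), widely used as a readout of antigen receptor signal strength, had 11534 scaled counts in dKO and 7167 in control in the authors' deposited table. It rose 1.61-fold, a log2 ratio of 0.69 (adjusted p 7.42e-06 in the authors' deposited table). Nr4a3 (Nor1, ENSMUSG00000028341, chromosome 4, 48045153 to 48086447) had 4681 scaled counts in dKO and 2713 in control, and it rose 1.73-fold (log2 0.79, adjusted p 4.2e-07 in the authors' deposited table). Both thus rose by a similar factor at different levels. Nr4a2 (Nurr1, ENSMUSG00000026826, chromosome 2, 57106830 to 57124003) was far lower, with 384 scaled counts in dKO and 187 in control. Its 2.05-fold ratio (log2 1.04) was the largest of the 10, yet the authors' deposited table gives it a p of 0.0458 and an adjusted p of 0.348, so it did not pass.

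Because the control mean averages whole-number counts of 2 libraries, each divided by its size factor, the counts of each control library could be recovered for means under 450. They are called reads here, but may be rounded estimates of the counting software and not observed reads. For Nr4a2 they were 211 reads in the deeper control library and 230 in the other, or 164 and 211 scaled counts. The dKO mean of 384 lies above both. The log2 ratio of the dKO mean was 1.23 against the deeper control library and 0.87 against the other. The 2 control libraries differed by 0.36 on the log2 scale for Nr4a2, against a median of 0.20 over the 2219 genes recovered with a control mean of 100 or more. The values of the 3 dKO libraries could not be separated, so no spread is known for the group that is higher. The means of Nr4a1 and Nr4a3 are too large for a unique pair of read numbers.

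Levels can be compared between genes per kilobase of the exon length in the table. On that scale Nr4a1 reached 4662 scaled counts per kilobase in dKO and 2897 in control, Nr4a3 reached 782 in dKO and 453 in control, and Nr4a2 reached 94.6 in dKO and 46.1 in control. Nr4a1 made up 84.2% of the summed level of the family in dKO and 85.3% in control, so its composition was nearly the same in both groups while the sum of its counts differed by 0.72 on the log2 scale.

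The sequences just before an annotated start of transcription are shown for the Nr4a genes because they include both genes that rose, and for Fos, the classic immediate early gene, as a comparison. They are the 250 bases before the annotated start in RefSeq (GRCm38.p6), at chr15:101266596-101266845 (+ strand) for Nr4a1, chr2:57124004-57124253 (- strand) for Nr4a2, chr4:48045055-48045304 (+ strand) for Nr4a3 and chr12:85473640-85473889 (+ strand) for Fos. Capitals mark the core of the cAMP response element, the CREB site, searched as TGACG on both strands (CGTCA when read on the other strand). By the coordinates used for the counts, Nr4a3 begins at 48045153, inside its window. The later part of that window, with the core nearest the RefSeq start, thus lies within the gene by those coordinates.

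Nr4a1: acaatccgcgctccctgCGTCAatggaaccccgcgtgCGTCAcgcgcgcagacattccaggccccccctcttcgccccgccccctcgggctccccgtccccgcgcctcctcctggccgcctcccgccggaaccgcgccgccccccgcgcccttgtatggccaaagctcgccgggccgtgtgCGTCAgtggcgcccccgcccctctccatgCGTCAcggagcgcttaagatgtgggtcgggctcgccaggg

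Nr4a2: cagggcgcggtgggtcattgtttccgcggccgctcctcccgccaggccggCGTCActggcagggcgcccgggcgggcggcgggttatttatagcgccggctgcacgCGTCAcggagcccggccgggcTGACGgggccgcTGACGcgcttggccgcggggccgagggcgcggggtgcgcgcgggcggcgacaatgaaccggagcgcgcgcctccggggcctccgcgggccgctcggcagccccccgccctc

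Nr4a3: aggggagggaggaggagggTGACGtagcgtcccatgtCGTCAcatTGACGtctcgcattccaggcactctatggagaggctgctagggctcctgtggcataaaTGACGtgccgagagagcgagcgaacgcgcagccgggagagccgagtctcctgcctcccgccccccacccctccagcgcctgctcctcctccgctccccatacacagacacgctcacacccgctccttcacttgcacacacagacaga

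Fos: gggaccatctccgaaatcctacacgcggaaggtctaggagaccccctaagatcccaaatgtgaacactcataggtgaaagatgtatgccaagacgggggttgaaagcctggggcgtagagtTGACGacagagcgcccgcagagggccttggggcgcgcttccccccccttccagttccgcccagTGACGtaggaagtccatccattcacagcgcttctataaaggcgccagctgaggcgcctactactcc

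Each Nr4a window holds 4 such cores, and the Fos window holds 2. In Nr4a1 they begin 233, 213, 69 and 40 bases before the start, in Nr4a2 200, 144, 123 and 111 bases, in Nr4a3 231, 213, 205 and 147 bases, and in Fos 129 and 66 bases. Of 32851 such windows in the table, 17.8% hold at least 1 core and 45 (0.137%) hold 4 or more. The shares given here cover all windows and were not matched for base composition. Junb and Fosb hold 1 each. Of 5 annotated starts of Egr2, 3 have a window with 2 cores, and Jun has none. The whole palindrome TGACGTCA, found in 1.55% of windows, is in none of those of the 8 genes that have one, and TGANTCA, the AP-1 site, found in 6.75%, is likewise in none. These searches miss related forms of other letters or length, which were not counted. The Jun window, for example, holds TGACATCA, which differs from the palindrome by 1 base. The serum response element, found in 1.47% of windows, is in 4 of the 5 Egr2 windows and in none of the windows of the other 7 genes. Bases more than 250 before the start were not searched, and Egr1 and Egr3 have no window. Absence from a window therefore does not mean that Fos or another gene lacks the element. The windows of 3 of these Egr2 starts overlap and hold the same element and the same 2 cores, so they are not separate sites. CANNTG, the E-box that E proteins bind, is in 66.2% of all windows. It is absent from those of Nr4a1 and Nr4a2, occurs once in those of Nr4a3, Jun and Junb and at 2 places in those of Fos and Fosb. It also occurs once in 4 of the 5 Egr2 windows, 3 of which overlap and share the same E-box. GCGNGGGCG, the EGR site, found in 4.70% of windows, occurs once each in those of Nr4a1, Nr4a2 and Fosb. Nr4a2, which did not pass, holds as many cores as Nr4a1 and Nr4a3. A match of letters is not a bound site.

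The Egr genes did not pass, and their ratios were smaller than those of the Nr4a genes. Egr1 (ENSMUSG00000038418, chromosome 18, 34859823 to 34864984), an activator induced through ERK and serum response factor, had 10223 scaled counts in dKO and 7998 in control, a log2 ratio of 0.35 (adjusted p 0.650 in the authors' deposited table). Egr2 (ENSMUSG00000037868, chromosome 10, 67535475 to 67542188), which with Egr3 restrains T cell activation in mice, had 3493 scaled counts in dKO and 3252 in control (log2 0.10, p 0.718 in the authors' deposited table). Egr3 (ENSMUSG00000033730, chromosome 14, 70077445 to 70080157) had 1217 scaled counts in dKO and 1076 in control (log2 0.18, p 0.315 in the authors' deposited table). Per kilobase, Egr1 had 2280 in dKO and 1784 in control, Egr2 had 1028 in dKO and 957 in control, and Egr3 had 860 in dKO and 760 in control, the same order in both groups.

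The Fos genes split by level. Fos (ENSMUSG00000021250, chromosome 12, 85473890 to 85477273) had 4558 scaled counts in dKO and 4247 in control, a log2 ratio of 0.10 with a p of 0.830 in the authors' deposited table. Fosb (ENSMUSG00000003545, chromosome 7, 19302721 to 19310045), an AP-1 partner of the same family, had 814 scaled counts in dKO and 416 in control. Its 1.96-fold ratio (log2 0.97) missed the threshold, at p 0.0619 and adjusted p 0.428 by the authors' deposited table. Its control reads were 443 in the deeper library and 533 in the other, or 344 and 488 scaled counts, both below the dKO mean. The log2 ratio of the dKO mean was 1.24 against the deeper control library and 0.74 against the other. These libraries differed by 0.50 on the log2 scale, more than 83.5% of the 2219 recovered genes did. Fosb made up 10.1% of the summed per-kilobase level of the pair of Fos genes in dKO and 5.79% in control.

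The Jun genes had nearly equal means in both groups. Junb (ENSMUSG00000052837, chromosome 8, 84976909 to 84978748), the most abundant of the 10, had 20359 scaled counts in dKO and 20146 in control (log2 0.02, p 0.944 in the authors' deposited table). Jun (ENSMUSG00000052684, chromosome 4, 95049034 to 95052222) had 3815 in dKO and 4009 in control (log2 -0.07, p 0.871 in the authors' deposited table). Jun overlaps an antisense gene, BC042782, which had 6.63 scaled counts in dKO and 10.8 in control. The direction of Junb turned with another scaling, to -0.021 when each group was divided by its sum, so none is given for it. A p this high does not show that the level was the same, and group means give no interval for the difference.

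By level per kilobase, the order in control was Junb (10949), Nr4a1 (2897), Fos (1806), Egr1 (1784), Jun (1257), Egr2 (957), Egr3 (760), Nr4a3 (453), Fosb (111) and Nr4a2 (46.1). In dKO the order was the same except that Egr1 (2280) stood above Fos (1938). Junb lay above 98.9% of the 12958 coding genes in control (those at a mean of at least 10), and 8 of the 10 genes lay above the median. Whether neighbours in this order differ beyond the spread between libraries cannot be said from group means.

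**Figure D2:**
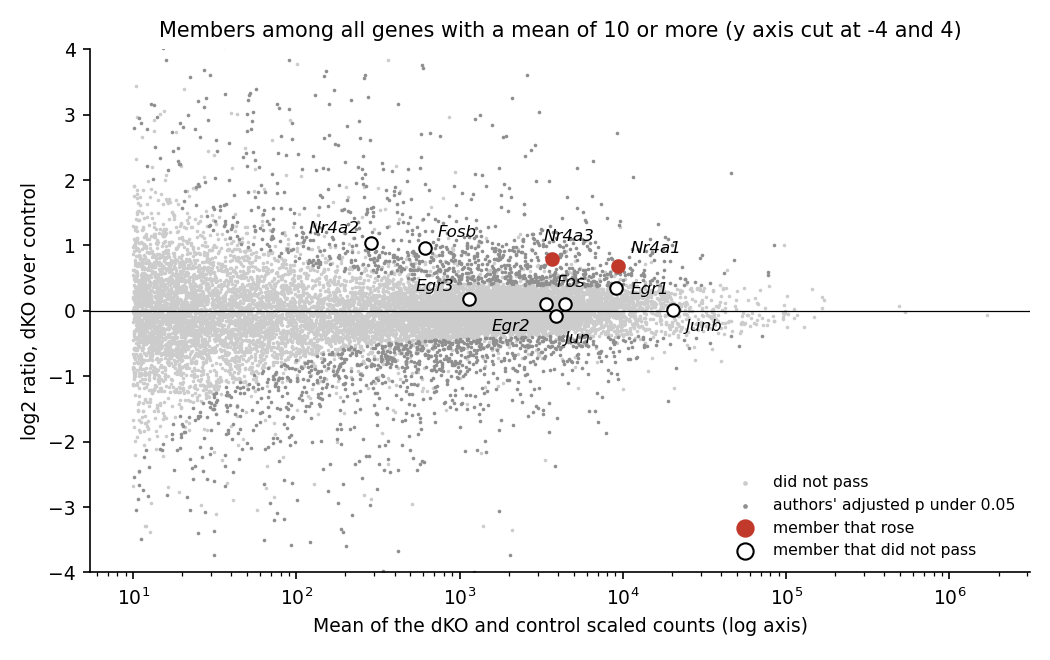
Log2 ratio of dKO over control against the mean of both groups (log axis) for genes at a mean of at least 10, cut at -4 and 4, with the 10 genes drawn larger and genes past the authors' threshold in darker grey. Nr4a1 and Nr4a3 (red) lie among the called genes at 0.69 and 0.79, while Nr4a2 at 1.04 and Fosb at 0.97 did not pass.

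Against all genes these changes were moderate. A larger log2 ratio than that of Nr4a3 was found for 1051 (6.81%) of these 15446 genes, and than that of Nr4a1 for 1295 (8.39%).

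Other genes of the pathway were counted from 7 lists of 103 genes, of which 19 (18.4%) passed. Among all genes at a mean of at least 100 that share was 15.6%, with 8.18% higher and 7.42% lower in dKO, and the counts below are to be read against these shares. Of 10 AP-1 partners, 4 rose (beside 8.18% of all genes at a mean of at least 100), none fell and 6 did not pass, and at an unadjusted p under 0.05 the counts were 6 higher and 0 lower by DESeq. Of the 4 that rose, Fosl1 and Atf3 had means over both groups of 40.5 and 36.4 scaled counts, below the level of that share. Batf3, which did not pass, had a mean of 4.69. The list's median log2 ratio was 0.86. Fosl2 (Fra-2), a Fos family protein without the activation domain of Fos, had 966 scaled counts in dKO and 190 in control, and rose by 2.35 on the log2 scale (adjusted p 0.0001 in the authors' deposited table). Its control reads were 212 and 235, so both control libraries were low. Jdp2, a repressor that dimerises with Jun, had 408 scaled counts in dKO and 107 in control, and rose 3.82-fold (adjusted p 3.39e-20 in the authors' deposited table). Atf3, a stress-induced repressor of the ATF family, rose to 66.1 scaled counts in dKO, against 6.63 in control, where it had 10 and 6 reads (adjusted p 0.0092 in the authors' deposited table). Fosl1 (Fra-1) had 57.8 scaled counts in dKO and 23.2 in control and rose (adjusted p 0.0093 in the authors' deposited table). Per kilobase, all 4 had a lower level than Fos, Jun and Junb, and Jdp2 had 217 in dKO and 56.8 in control. The abundant partners Jund and Batf had log2 ratios of 0.35 and 0.40 and did not pass, and Jund overlaps another gene.

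Jdp2 and Batf lie downstream of Fos on chromosome 12. The start of Jdp2 lies 125 kilobases and that of Batf 213 kilobases from the start of Fos. The locus was looked at after these values were seen. Of 9 genes, Fos included, that lie at least partly within 250 kilobases of Fos at a mean of at least 10, Jdp2 alone passed the test in the authors' deposited table, and 6 neighbours on the other side had log2 ratios from -0.05 to 0.43.

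**Figure D3:**
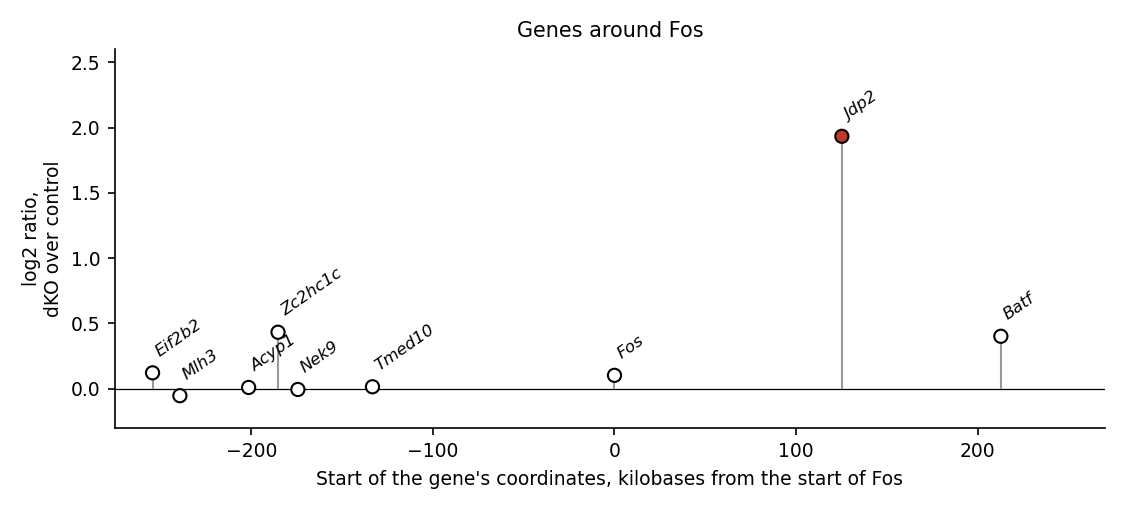
Log2 ratio of dKO over control for genes at a mean of at least 10 lying at least partly within 250 kilobases of Fos, against the distance of the start of each gene's coordinates from that of Fos. Jdp2 (red) stands at 1.93, while Fos is at 0.10 and Batf at 0.40.

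Of the 4 genes around the Egr factors, none passed by DESeq, with 2 higher and 0 lower at an unadjusted p under 0.05. The corepressors Nab2 and Nab1, which bind Egr proteins, had log2 ratios of 0.32 and 0.04, and Nab2 overlaps another gene. Of 10 genes of MAP kinase feedback, 2 rose (beside 8.18% of all genes at a mean of at least 100), none fell and 8 did not pass, and at an unadjusted p under 0.05 the counts were 5 higher and 0 lower by DESeq. The 2 that rose were the phosphatase genes Dusp4 (5357 scaled counts in dKO and 2918 in control, adjusted p 0.0231) and Dusp5 (6970 in dKO and 3830 in control, adjusted p 0.048), both of which act on ERK in the nucleus, in the authors' deposited table. Dusp1, itself an immediate early gene, had a log2 ratio of -0.03.

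Of 22 other early response genes, 4 rose, 2 fell and 16 did not pass, and at an unadjusted p under 0.05 the counts were 7 higher and 2 lower. The kinase gene Sik1, a CREB target, had 5641 scaled counts in dKO and 1422 in control and rose by 1.99 on the log2 scale (adjusted p 0.0185 in the authors' deposited table). Crem, whose short form ICER represses cAMP responses, rose 2.40-fold (adjusted p 3.41e-07), Nfil3 2.34-fold (adjusted p 0.015) and the survival kinase gene Pim1 1.88-fold (adjusted p 8.38e-10) in the authors' deposited table. Zfp36l1, an RNA-binding protein that promotes mRNA decay, fell by 0.51 and Ier5 fell by 0.45 on the log2 scale, with adjusted p-values of 0.0014 and 0.0118 in the authors' deposited table. Crem, Pim1 and Zfp36l1 overlap another gene and may share its reads. Myc, Ier2 and Zfp36 had log2 ratios of 0.02, -0.09 and 0.10.

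Of 22 upstream regulators, 4 fell, none rose and 18 did not pass, and at an unadjusted p under 0.05 the counts were 1 higher and 5 lower by DESeq, with a median log2 ratio of -0.08. Elk3, a partner of serum response factor, had 1458 scaled counts in dKO and 3089 in control and fell by 1.08 on the log2 scale (adjusted p 1.33e-07 in the authors' deposited table). Ppp3ca, a catalytic subunit of calcineurin, fell by 0.87 (adjusted p 4e-05), and Rasgrp1, which activates Ras below the antigen receptor, fell by 0.57 (adjusted p 0.0004), in the authors' deposited table. Elk1, a further partner of serum response factor that overlaps another gene, fell by 0.53 (adjusted p 0.0314 in the authors' deposited table). Srf itself had a log2 ratio of 0.05 and Creb1 of 0.00. Among all genes at a mean of at least 100, 7.42% were lower in dKO, and over all genes with a p, 3.18% were.

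Among 20 T cell genes linked to Nr4a or Egr activity, 2 rose, 1 fell and 17 did not pass, a share near that of all genes at a mean of at least 100 (15.6%). At an unadjusted p under 0.05 the counts were 4 higher and 4 lower, and the median log2 ratio was 0.01. The inhibitory receptor gene Ctla4 rose to 26706 scaled counts in dKO, against 13258 in control (adjusted p 4.71e-05), and Cd200 rose 1.38-fold (adjusted p 0.009), in the authors' deposited table. Nrp1, a surface marker of thymus-derived regulatory T cells, fell by 1.32 on the log2 scale (adjusted p 9.56e-10 in the authors' deposited table). Ctla4 and Nrp1 overlap another gene. Foxp3, a direct Nr4a target, had 10942 scaled counts in dKO and 13481 in control, and Ikzf2 had 18296 in dKO and 22751 in control, with adjusted p-values of 0.188 and 0.134 in the authors' deposited table. Foxp3 also overlaps another gene.

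Fos, Jun and Egr1 are also induced by handling of cells, as are heat shock genes. Of 15 heat shock and handling genes, none passed by DESeq, with 1 higher and 0 lower at an unadjusted p under 0.05. Of the 2 with the highest means, Hspa8 had 129930 scaled counts in dKO and 64952 in control (p 0.0234, adjusted p 0.219), and Hsp90ab1 had 109830 in dKO and 93757 in control (adjusted p 0.557), in the authors' deposited table. Hspa8, the gene counted as higher, overlaps another gene and may share its reads. The median log2 ratio of the list was 0.20, and the part of handling in the values of the 10 genes was not tested.

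**Figure D4:**
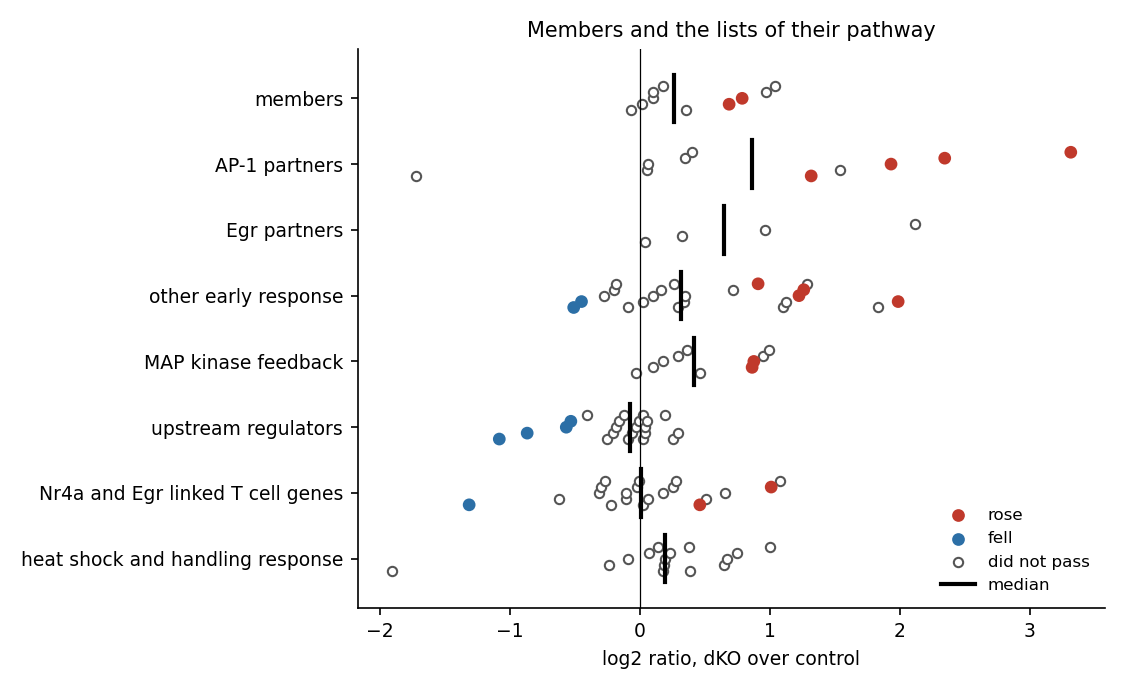
Log2 ratio of dKO over control for the 10 genes and for the genes of 7 pathway lists, 1 point per gene, with the median of each list as a bar. Red points rose and blue points fell by the authors' adjusted p, and the upstream regulators are the list with falls and no rise, at a median of -0.08.

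The separate pair was measured as FPKM with 1 library per group, so it has no test of the conditions. Its libraries are called here by their titles. Id2 had 9.69 FPKM in the library labelled dKO and 18.6 FPKM in the library labelled control, and Id3 had 221 FPKM in the library labelled dKO and 160 FPKM in the library labelled control. The labels of this pair are therefore not settled by the targeted genes. Of the 10 genes, 7 were lower in the library labelled dKO and 3 were higher, with a median log2 ratio of -0.35 beside 0.01 for 8679 genes with 5 or more FPKM. If the genotype tags were followed in place of the titles, every sign would turn.

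Nr4a3 differed most, with 7.57 FPKM in the library labelled dKO and 19.3 FPKM in the library labelled control, a log2 ratio of -1.24 with a pseudocount of 1 FPKM. It was the only one of the 10 past 1 in size, where 5.83% of genes were. Cuffdiff, which compares these 2 libraries and not the conditions, gave it a p of 0.0293 and a q of 0.655 in the authors' deposited table, where 0.174% of tested transcript entries had a q under 0.05. No gene of the 10 did. Nr4a1 had 85.1 FPKM in the library labelled dKO and 118 FPKM in the library labelled control (log2 -0.47). By the titles, then, the receptor genes that rose in the replicated comparison were lower in this library labelled dKO. Nr4a2 had 0.858 FPKM in the library labelled dKO and 1.07 FPKM in the library labelled control, near the lower end of what was measured.

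Egr1 had 99.4 FPKM in the library labelled dKO and 89.0 FPKM in the library labelled control (log2 0.16). Egr2 had 25.7 FPKM in the library labelled dKO and 32.9 FPKM in the library labelled control, and Egr3 had 29.2 FPKM in the library labelled dKO and 44.2 FPKM in the library labelled control. Fos had 16.3 FPKM in the library labelled dKO and 25.2 FPKM in the library labelled control (log2 -0.59). Fosb had 2.75 FPKM in the library labelled dKO and 1.37 FPKM in the library labelled control, higher as in the replicated comparison. Jun had 22.1 FPKM in the library labelled dKO and 28.7 FPKM in the library labelled control. Junb was again the highest and nearly equal, with 363 FPKM in the library labelled dKO and 351 FPKM in the library labelled control.

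Among the pathway genes, Sik1 had 40.1 FPKM in the library labelled dKO and 13.2 FPKM in the library labelled control, and Jdp2 had 7.59 FPKM in the library labelled dKO and 3.79 FPKM in the library labelled control. Ctla4 had 408 FPKM in the library labelled dKO and 182 FPKM in the library labelled control, and Nrp1 had 23.8 FPKM in the library labelled dKO and 52.8 FPKM in the library labelled control. These 4 genes were picked after their values were seen. Of the 19 list genes that passed in the replicated comparison, 15 had the same sign in the pair by the titles and 4 the opposite sign. The 4 were Fosl2, Fosl1, Dusp5 and Cd200, of which Cd200 had 24.5 FPKM in the library labelled dKO and 58.3 FPKM in the library labelled control. No lower limit of FPKM was set for these counts. Fosl2 and Fosl1, and Atf3 among the 15, had under 5 FPKM in both libraries, so their signs carry little weight. The share of same signs over all genes was not counted. Of the heat shock and handling genes, Hspa1b had 0.0294 FPKM in the library labelled dKO and 6.65 FPKM in the library labelled control. Hspa1a had 0.0591 FPKM in the library labelled dKO and 1.65 FPKM in the library labelled control, both picked with values seen. Of 12 genes of that list with 5 or more FPKM, 1 had a log2 ratio below -1 and 0 above 1 (median 0.10). The part of handling in this pair was not tested. Whether the pair and the replicated comparison differ for the Nr4a genes was not tested.

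**Figure D5:**
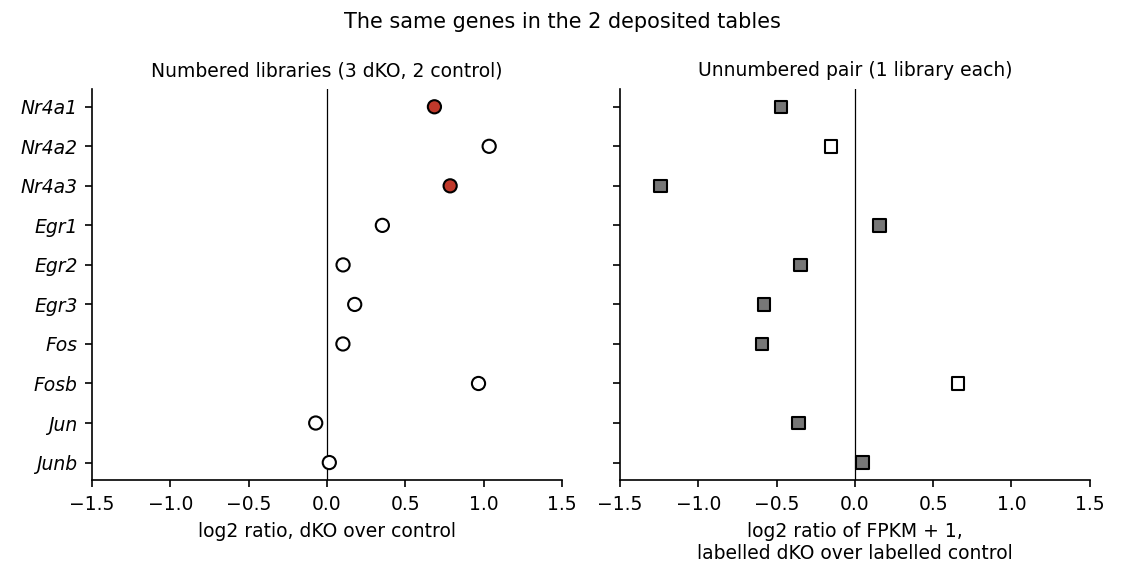
Log2 ratios of the 10 genes in the replicated comparison (left, dKO over control, red where the gene rose) and in the unnumbered pair (right, log2 of FPKM plus 1, library labelled dKO over library labelled control, open squares under 5 FPKM in both). Nr4a1 and Nr4a3 lie at 0.69 and 0.79 on the left and at -0.47 and -1.24 on the right, while Fosb lies above 0 in both.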

How the data were processed

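The group means deposited by the authors are a signal, fractional values that average depth-scaled read counts of 3 dKO or 2 control libraries. Per the submitters' processing notes they come from RSEM and DESeq (no versions) on mm10 (GRCm38). The authors deposited with them log2 ratios, a signed fold score, and raw and adjusted p-values, and recomputed log2 ratios and adjusted p-values differed from these by at most 0.000211 and 0.00124. The FPKM values and their p-values and q-values of the pair were deposited by the authors from TopHat 1.4.0 and Cuffdiff (version given as 0.0.6) on mm9, per the submitters' processing notes. Neither labels nor headers state whether counting used the strand.

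The authors' DESeq test was used as deposited (adjusted p under 0.05), since the values of the single dKO libraries could not be recovered. Genes past it are said to have risen or fallen. Whole-number counts of the 2 control libraries (size factors 1.29 and 1.09), called reads here, were recovered to within 6e-05 for 20133 of 20133 control means under 450 (Python 3.11.15, numpy 2.4.6, pandas 2.3.3), a step tested on simulated data. FPKM was summed over a gene's transcripts, and 96.0% of 27901 entries matched a RefSeq symbol. Promoter windows are from RefSeq (GRCm38.p6), for 8 of the 10 genes. The genes and lists were chosen with earlier results of these data known. Of each list, genes past the threshold are named, or with none the 2 with the highest mean. Other genes named, among them S100a9, Kdm5d, Jund, Batf, Dusp1, Myc, Ier2, Zfp36, Srf, Creb1, Foxp3 and Ikzf2, were chosen after their values were seen. Of 130 list symbols, 129 matched, and for a repeated symbol the row with the highest mean was taken.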

Additional observations from a re-analysis of the deposited data

How the results depend on the processing

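The count of 2 genes that rose was the same with the adjustment over genes with a mean of 10 or more, without genes that overlap another, and at an adjusted p under 0.1. Other scalings moved every log2 ratio by -0.04 to 0.01, and reversed only Junb, to -0.021 when each group was divided by its sum and to -0.020 with upper quartile scaling. In the pair, Nr4a2 had a log2 ratio of -0.28 with a pseudocount of 0.1 FPKM, -0.05 with one of 5 FPKM and -0.32 for its highest transcript, against -0.15, and Fosb had 0.28 with a pseudocount of 5 FPKM, against 0.66. Of the Egr partners, 1 gene passed with the adjustment over genes with a mean of 10 or more. Without genes that overlap another, 3 of the other early response genes and 1 of the T cell genes linked to Nr4a or Egr passed, against 6 and 3 in the main setting. That setting leaves out Crem, Pim1, Zfp36l1, Ctla4 and Nrp1 themselves, so these lower counts do not mean that those genes lost their call. Over all 7 lists, 14 genes passed in that setting and 24 with the adjustment over genes with a mean of 10 or more, against 19. Leaving out a library was possible for the control means of Nr4a2 (log2 ratio 0.87 to 1.23) and Fosb (0.74 to 1.24), as values with no test. It was not run for the counts of genes that passed, since the table holds group means. No paired analysis was possible because the table gives means per group and no value per library of dKO.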
